A study of Mus musculus with 12 samples.

Results

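The genes described here make cholesterol and fatty acids or regulate those pathways. They were taken from a fixed list of 37 symbols matched by name in the deposited expression table, and all 37 were found among its 52635 genes. The list was chosen with earlier results of these data known, so shares of members set against all genes are descriptions. By role, 7 act in the mevalonate pathway, 11 in sterol synthesis from squalene onwards and 10 in fatty acid synthesis, elongation and desaturation. Another 5 encode the sterol-sensing regulators, and 4 encode a sterol carrier, sterol exporters and a target of the liver X receptor (LXR). RNA-seq was done on 12 libraries of CD4 T cells that were naive when isolated from C57BL/6 mice, an inbred strain. All cells were stimulated with antibodies to CD3 and CD28, in medium whose serum had been stripped with charcoal, and were harvested after 24 h. The same mixture of cytokines and antibodies was given to all of them. It held 20 ng/mL of IL-6, 10 ng/mL each of IL-21, IL-23 and IL-1β, 5 ng/mL each of TGF-β1 and TNFα, and 10 µg/mL of antibody to IFNγ and to IL-4. The 3 genotype labels, RARα TG, RARα KO and wild type (WT), were each studied without retinoic acid (RA) and with 10 nM RA, in 2 libraries per group. RA, the active derivative of vitamin A, acts through nuclear receptors that include RARα, the product of Rara. The sources used here do not give the deleted allele, the construct, its promoter, or the age and sex of the mice.

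In animal cells, cholesterol is built from acetyl-CoA through mevalonate, farnesyl diphosphate and squalene. SREBP2, the product of Srebf2, is the transcription factor of the sterol genes, and SREBP1, the product of Srebf1, acts more on fatty acid genes. Both are held in the endoplasmic reticulum by Insig proteins when sterols are plentiful, and Scap escorts them to the Golgi for cleavage when sterols are scarce. LXR responds to oxidised sterols and raises exporters such as Abca1 and Abcg1. T cells that leave rest and divide are known to need new membrane lipid, and these pathways are active in them.

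Before the members, the libraries were examined as a whole. Their depth, worked out from the size of 1 read in the values of low genes, was 16289776 to 25534417 reads. The gene named in the labels, Rara, stood at 16.5 and 18.9 without RA and, with RA, 12.3 and 14.2 FPKM in WT (fragments per kilobase of transcript and per unit of depth). The libraries with the KO label had 19.5 and 19.3 without RA and, with RA, 16.8 and 17.6, so it was not lower than in WT, and for this reason they are called KO-labelled throughout. In TG it stood at 72.8 and 63.3 without RA and, with RA, 126 and 119. A gene-level value does not show the loss of part of a gene. The labels give a purity above 95%, and the CD4 T-cell markers were present: Cd4 lay between 46.6 and 87.7 FPKM, and the 7 markers summed to 681 to 1113 FPKM. Of the 2 CD8 T-cell markers, Cd8a reached at most 0.714 FPKM and Cd8b1 lay between 1.24 and 3.69, both highest in TG with RA. By Xist and Y-linked transcripts, the 4 WT libraries were from males, the 4 KO-labelled libraries from females, and TG had a male replicate 1 and a female replicate 2 at either dose. The KO label and sex therefore cannot be told apart. The labels do not say whether replicates were separate animals. In TG the 2 replicate numbers differed in sex, so they came from different mice. In WT and KO-labelled cells this is not known. The p-values measure the spread between these libraries, which in WT and KO-labelled cells may be technical. In bulk RNA, fewer cells of a type and less RNA per cell cannot be told apart.

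Promoter sequence is a property that the choice of genes did not use. RefSeq promoters on GRCm38.p6 were found for 29 of the 37 genes, and the 250 bases before each start were searched on both strands for 6 motifs. The 8 genes without an entry were not searched: Abcg1, Scd1, Stard4, Sqle, Fdft1, Fads1, Fdps and Scd2. The NF-Y box CCAAT lay in 22 of 29 genes (75.9%), against 37.5% of all 27025 genes. The Sp1 box GGGCGG lay in 24 (82.8%), against 35.4% of all genes. The E-box CACGTG, one of the letter patterns that SREBP proteins can bind, lay in 7 (24.1%, against 6.86%), which were Hsd17b7, Sc5d, Dhcr7, Insig1, Scap, Elovl5 and Abca1. The sterol regulatory element core CACCCCAC lay in 2 (6.9%, against 2.98%), Hmgcs1 and Acat2. The repeats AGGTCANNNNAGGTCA, an LXR pattern, and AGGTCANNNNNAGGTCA, an RAR pattern, lay in 0 of 29, and in 4 and 3 of all genes. With matches this rare in all genes, 0 of 29 carries little information. No match of 1 motif overlapped a match of another in these genes. A match describes letters and not binding. The 27025 genes include many that were not tested for expression differences here, whereas every member was tested. Among the tested genes with a promoter, 5414 held the Sp1 box and 2899 did not. For the NF-Y box these counts were 3410 and 4903, for the E-box 873 and 7440, and for the sterol element core 274 and 8039. The Sp1 box was thus common in tested genes as a whole. The sequences of 5 genes show how the motifs are arranged. Hmgcs1 and Acat2 are shown because they hold the sterol element core. Hsd17b7, Sc5d and Elovl5 are shown because their response to RA differed between TG and WT, and they were chosen after those values were seen. Each sequence runs 5′ to 3′ towards the start of the gene, on the strand of the gene. Capitals mark CACCCCAC, CACGTG or ATTGG, which is CCAAT on the other strand.
Hmgcs1, chr13:119690101-119690350 (plus strand): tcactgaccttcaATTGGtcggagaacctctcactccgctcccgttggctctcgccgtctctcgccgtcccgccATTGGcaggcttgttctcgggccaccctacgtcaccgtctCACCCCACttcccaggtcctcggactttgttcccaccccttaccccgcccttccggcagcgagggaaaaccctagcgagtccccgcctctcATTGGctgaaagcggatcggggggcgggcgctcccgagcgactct
Acat2, chr17:12960726-12960975 (minus strand): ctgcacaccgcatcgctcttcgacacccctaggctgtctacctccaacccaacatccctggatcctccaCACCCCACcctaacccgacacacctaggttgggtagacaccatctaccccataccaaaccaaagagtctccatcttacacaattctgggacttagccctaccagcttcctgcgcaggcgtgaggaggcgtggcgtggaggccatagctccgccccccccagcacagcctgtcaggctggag
Hsd17b7, chr1:169969206-169969455 (minus strand): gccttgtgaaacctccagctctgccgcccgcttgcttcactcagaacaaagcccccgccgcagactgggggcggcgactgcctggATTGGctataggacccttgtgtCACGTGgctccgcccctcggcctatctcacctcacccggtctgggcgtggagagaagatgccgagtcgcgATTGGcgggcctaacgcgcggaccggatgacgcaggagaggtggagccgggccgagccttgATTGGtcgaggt
Sc5d, chr9:42264301-42264550 (minus strand): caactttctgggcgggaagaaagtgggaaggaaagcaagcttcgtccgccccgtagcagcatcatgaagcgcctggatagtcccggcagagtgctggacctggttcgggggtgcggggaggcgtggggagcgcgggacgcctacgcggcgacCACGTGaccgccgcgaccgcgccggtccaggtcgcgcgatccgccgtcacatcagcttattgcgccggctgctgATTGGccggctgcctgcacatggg
Elovl5, chr9:77917115-77917364 (plus strand): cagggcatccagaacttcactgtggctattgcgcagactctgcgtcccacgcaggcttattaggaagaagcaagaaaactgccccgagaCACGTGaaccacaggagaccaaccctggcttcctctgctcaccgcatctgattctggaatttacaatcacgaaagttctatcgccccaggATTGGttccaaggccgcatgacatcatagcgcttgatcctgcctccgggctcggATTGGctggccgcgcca
Hmgcs1 held 3 NF-Y boxes around its sterol element core, Hsd17b7 held 3 and an E-box, and Elovl5 held 2 and an E-box. Sc5d held 1 of each, and Acat2 held the core with neither of the others. The map of matches along the promoters orders the genes by their RA effect in TG.

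**Figure D1:**
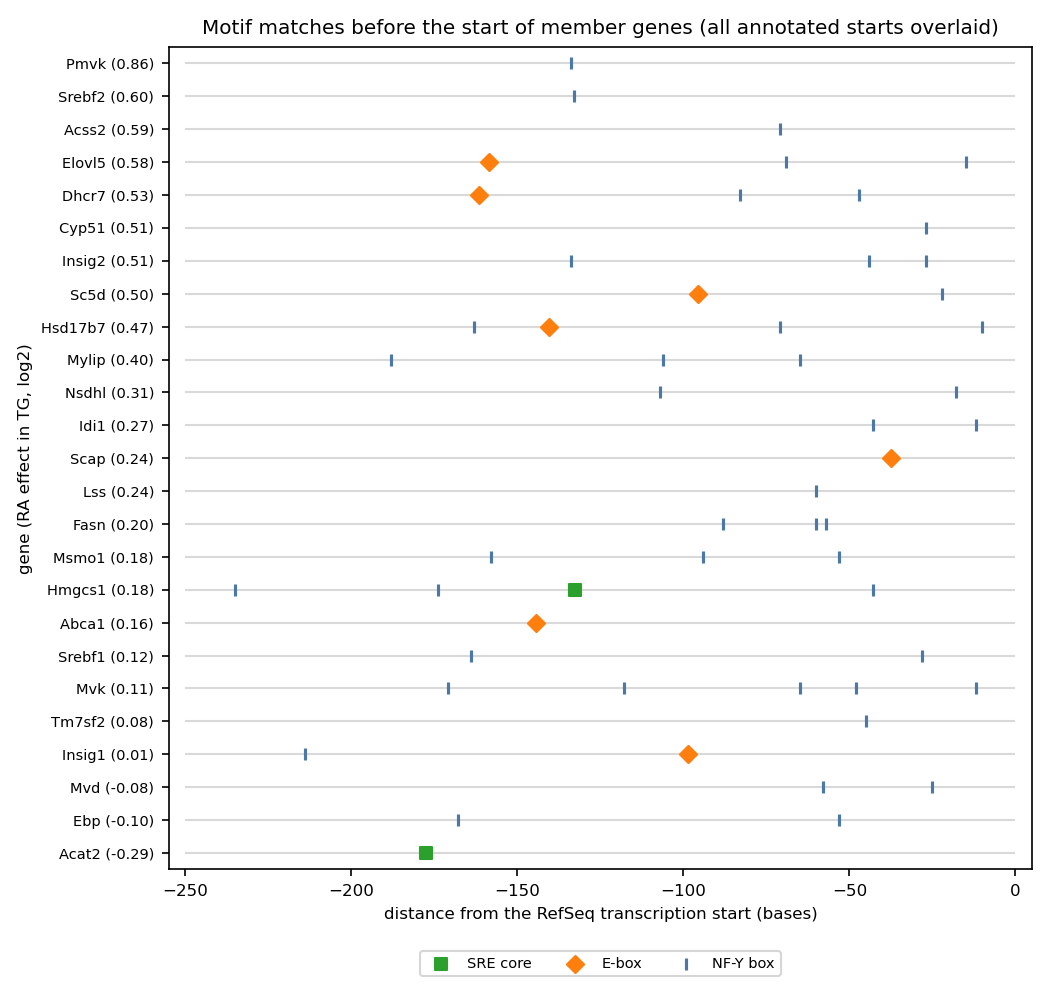
Matches of the sterol element core, E-box and NF-Y box in the 250 bases before RefSeq starts of the members, against distance from the start in bases; genes are ordered by their RA effect in TG (log2, in brackets). NF-Y boxes lie in 22 of 29 genes and appear from the top to the bottom of the order, while the sterol element core marks Hmgcs1 and Acat2.

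Levels per transcript length spanned a wide range. All 37 genes passed the filter on low values (1 FPKM or more in 2 or more libraries) and were tested. By the median over 12 libraries, Scd2, a stearoyl-CoA desaturase, stood highest at 165 FPKM, followed by Acly at 102, Cyp51 at 74.8, Srebf2 at 68.2 and Fasn at 52.8. Acss2 at 1.88 and Abca1 at 1.70 were lowest. The desaturase Scd1, on chromosome 19 beside Scd2, had a median of 5.44 FPKM, far below its neighbour. Reads recovered from FPKM and exon length were 106 to 29607 per gene and library.

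RA moved about as many sterol and fatty acid genes in TG as it left short of the threshold. There, 17 of the 37 genes rose and 2 fell (limma on log2(FPKM + 1), Benjamini-Hochberg over all 11922 genes tested, adjusted p under 0.05, n = 2 per group). The 19 calls were 51.4% of the members, against 39.1% of all tested genes. By direction, 45.9% of the members were higher, against 19.7% of all tested genes, and 5.41% lower, against 19.4% of all. The median difference over the 37 was 0.24 on the log2 scale, against -0.02 over all tested genes. Rises included squalene synthase, the regulator Srebf2, late sterol enzymes, fatty acid elongases and the exporter Abcg1. The 18 that did not pass included Hmgcs1, Sqle, Insig1, Fasn and Acaca. Both TG libraries with RA lay above the other 10 libraries in 18 of 37 genes (48.6%, against 13.4% of all tested genes). Markers of other cells moved too: the 10 B-cell markers summed to 31.0 and 33.4 FPKM in TG without RA and 109 and 107 with RA, mostly Ighm. Without Ighm they summed to 3.48 and 5.75, and 7.62 and 11.02. The 4 NK-cell markers summed to 0.812 and 1.54 without RA and 33.7 and 32.1 with RA, nearly all of it Nkg7, while Ncr1 and Klrb1c were at most 0.179 FPKM in TG. The part of other cells in the result was not tested.

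**Figure D2:**
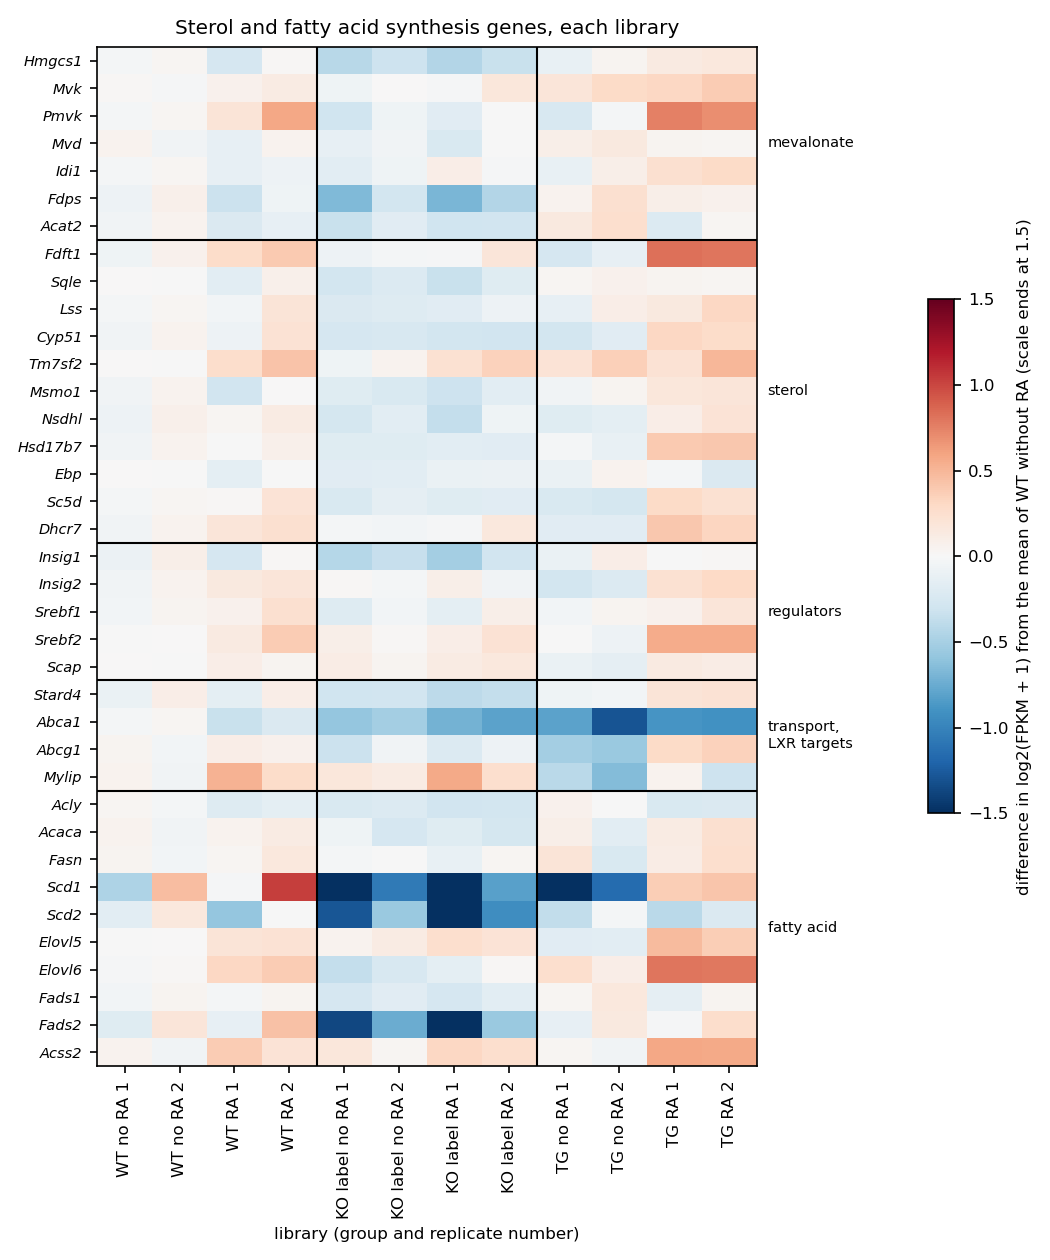
Each row is a gene and each column a library; colour is the difference in log2(FPKM + 1) from the mean of WT without RA, and black lines part the roles and genotypes. The 2 right-hand columns, TG with RA, are red for most sterol genes, while the KO-labelled columns are blue at Scd1, Scd2 and Fads2. TG without RA is also blue at Scd1.

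In the mevalonate pathway, Pmvk and Idi1 rose in TG and Acat2 fell. Pmvk (ENSMUSG00000027952, chromosome 3, 89454541 to 89469013 on GRCm38), the phosphomevalonate kinase, stood in TG at 21.2 and 24.8 without RA and, with RA, 43.2 and 41.5 FPKM. It rose by 0.86 ± 0.13, adjusted p = 0.0012, and both libraries with RA lay above all others. Its FPKM in WT was 24.7 and 25.8 without RA and, with RA, 29.1 and 38.3, and in KO-labelled cells 20.3 and 24.1 without RA and, with RA, 22.4 and 25.03. Its RA difference in WT was 0.39 ± 0.13, adjusted p = 0.11, with both RA libraries above both others but short of the threshold. Idi1 (ENSMUSG00000058258, chromosome 13, 8885501 to 8892451) encodes the isomerase that supplies dimethylallyl diphosphate. Its FPKM in TG was 1.82 and 2.26 without RA and, with RA, 2.62 and 2.72, in WT 1.98 and 2.13 without RA and, with RA, 1.82 and 1.89, and in KO-labelled cells 1.75 and 1.92 without RA and, with RA, 2.28 and 2.02. The rise in TG, 0.27 ± 0.094, adjusted p = 0.046, was near the threshold and the level was low. It ended without TG replicate 1 without RA (0.17), or without replicate 1 (0.29) or 2 (0.25) with RA. Acat2 (ENSMUSG00000023832, chromosome 17, 12942890 to 12960747), the cytosolic thiolase that joins acetyl-CoA units, stood in TG at 22.7 and 24.5 without RA and, with RA, 17.5 and 20.9 FPKM, and fell by 0.29 ± 0.089 (adjusted p = 0.033). WT values were 19.6 and 21.2 without RA and, with RA, 17.4 and 18.6, and KO-labelled values 16.0 and 17.9 without RA and, with RA, 16.4 and 16.6. The fall passed the threshold with all libraries but not without TG replicate 1 (-0.34) or 2 (-0.23) without RA, or replicate 1 with RA (-0.16).

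The other mevalonate genes did not pass in TG. Hmgcs1, which makes HMG-CoA, ranged from 33.4 to 50.8 FPKM over the 12 libraries, and its RA difference in TG was 0.18 ± 0.094, adjusted p = 0.18. Both TG libraries with RA lay above all 10 others, so the values are high there without a call. Mvk (5.96 to 8.49 FPKM), Mvd (18.5 to 24.3) and Fdps (5.06 to 10.5), which encode mevalonate kinase, the decarboxylase and farnesyl diphosphate synthase, differed in TG by 0.11, -0.08 and -0.07. These values lie on either side of 0, whereas Pmvk, which acts between Mvk and Mvd, passed. Fdps shares 26.7% of its exon bases with another annotated gene on the same strand, which is listed at 0 in these libraries.

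In sterol synthesis proper 6 of 11 genes rose in TG (54.5%, against 19.7% of all tested genes). Fdft1 (ENSMUSG00000021273, chromosome 14, 63145150 to 63179578), squalene synthase, commits farnesyl diphosphate to sterols. It stood in TG at 12.2 and 13.4 without RA and, with RA, 26.7 and 26.3 FPKM, a rise of 0.998 ± 0.085, adjusted p = 4.1e-05, or 2.07-fold in mean FPKM. By comparison, WT had 13.9 and 15.5 without RA and, with RA, 17.9 and 19.6, and KO-labelled cells had 13.8 and 14.4 without RA and, with RA, 14.5 and 16.8. The 2 TG libraries without RA were the lowest of the 12 and those with RA the highest. However, 18.3% of the exon bases of Fdft1 lie opposite exons of Ctsb, a lysosomal protease gene on the other strand. Ctsb stood at 36.8 and 33.9 without RA and, with RA, 82.7 and 88.9 FPKM in WT. It read 46.7 and 37.3 without RA and, with RA, 64.2 and 64.0 in KO-labelled cells, and 26.6 and 23.0 without RA and, with RA, 186 and 179.5 in TG. Ctsb thus differed with RA in the same direction as Fdft1 in every genotype, and most in TG. The library kit marks strand but the sources used here do not state whether counting used it, so reads of the 2 genes cannot be told apart with certainty, and this holds for every value of Fdft1 here. Of the 37 members, 12 share exon bases with another gene. Tm7sf2 shares 12.1% on its own strand with Vps51, which stood at 6.50 to 8.73 FPKM and rose in TG (0.26 ± 0.054). Acss2 shares 9.12% with genes on the other strand that include Ggt7 and Gss. Srebf1 shares 3.11% with genes that include Rai1, which rose in TG (1.35 ± 0.10).

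Of the enzymes after squalene, Cyp51, Nsdhl, Hsd17b7, Sc5d and Dhcr7 rose in TG. Cyp51 (ENSMUSG00000001467, chromosome 5, 4081145 to 4104746), the lanosterol demethylase, stood in TG at 67.3 and 72.4 without RA and, with RA, 101 and 98.9 FPKM, a rise of 0.51 ± 0.088, adjusted p = 0.0020. The WT libraries read 78.8 and 84.4 without RA and, with RA, 77.2 and 95.1, and the KO-labelled libraries 68.0 and 68.8 without RA and, with RA, 67.3 and 66.5. The TG libraries with RA were the highest, with replicate 2 of WT with RA next. Nsdhl (ENSMUSG00000031349, chromosome X, 72918557 to 72958514), which acts in removing methyl groups from sterol intermediates, stood in TG at 13.8 and 14.2 without RA and, with RA, 16.9 and 18.4 FPKM. Its values were 14.9 and 16.8 without RA and, with RA, 16.2 and 17.3 in WT, and 13.0 and 14.1 without RA and, with RA, 12.1 and 15.1 in KO-labelled cells. The rise in TG, 0.31 ± 0.10, adjusted p = 0.037, ended when any 1 of the 4 TG libraries was left out (0.26 to 0.36, adjusted p 0.070 to 0.17), and the TG range with RA overlapped that of WT with RA. Hsd17b7 (ENSMUSG00000026675, chromosome 1, 169949535 to 169969241), the sterol ketone reductase whose promoter is shown above, stood in TG at 7.75 and 7.31 without RA and, with RA, 10.8 and 10.8 FPKM, a rise of 0.47 ± 0.056, adjusted p = 0.00028. Libraries of WT held 7.67 and 8.26 without RA and, with RA, 7.92 and 8.44, and those labelled KO held 6.91 and 6.90 without RA and, with RA, 7.002 and 6.99. The other 10 libraries lay close together, all below both TG libraries with RA.

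Sc5d (ENSMUSG00000032018, chromosome 9, 42251595 to 42264256), which adds a double bond late in the pathway, stood in TG at 27.4 and 26.6 without RA and, with RA, 39.3 and 37.7 FPKM, a rise of 0.50 ± 0.066, adjusted p = 0.00049. Its FPKM in WT was 31.6 and 32.7 without RA and, with RA, 32.4 and 37.1, and in KO-labelled cells 27.4 and 29.2 without RA and, with RA, 28.2 and 28.5. TG without RA was level with or just under KO-labelled cells, and TG with RA was the highest group. Dhcr7 (ENSMUSG00000058454, chromosome 7, 143823145 to 143848410), the reductase of the last step to cholesterol, stood in TG at 7.75 and 7.77 without RA and, with RA, 11.99 and 11.3 FPKM, a rise of 0.53 ± 0.068, adjusted p = 0.00042. WT values were 8.51 and 9.21 without RA and, with RA, 10.2 and 10.6, and KO-labelled values 8.66 and 8.60 without RA and, with RA, 8.75 and 9.96. TG held both the lowest and the highest libraries of this gene. Sqle, squalene epoxidase, ranged from 18.1 to 24.3 FPKM and its RA difference in TG was -0.02 ± 0.081, adjusted p = 0.89. Lss (0.24), Msmo1 (0.18), Tm7sf2 (0.08) and Ebp (-0.10) also did not pass, with ranges of 6.57 to 9.85, 9.88 to 14.3, 2.17 to 3.72 and 22.2 to 27.0 FPKM. So neighbouring steps of the pathway differed in whether they passed, although differences between steps were not tested.

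Among the regulators Srebf2, Scap and Insig2 rose in TG and Srebf1 and Insig1 did not pass. Srebf2 (ENSMUSG00000022463, chromosome 15, 82147181 to 82205379), the sterol transcription factor, stood in TG at 63.2 and 60.4 without RA and, with RA, 93.8 and 94.2 FPKM, a rise of 0.60 ± 0.078, adjusted p = 0.00047. By comparison, WT had 63.3 and 64.0 without RA and, with RA, 69.9 and 82.9, and KO-labelled cells had 67.9 and 64.7 without RA and, with RA, 68.4 and 74.3. Both TG libraries with RA exceeded the other 10, and both without RA were below the other 10, though by a narrow margin. Scap (ENSMUSG00000032485, chromosome 9, 110333288 to 110384950), the escort protein, stood in TG at 18.8 and 18.3 without RA and, with RA, 22.3 and 21.9 FPKM, a rise of 0.24 ± 0.046, adjusted p = 0.0033. The WT libraries read 20.2 and 20.1 without RA and, with RA, 21.6 and 20.7, and the KO-labelled libraries 21.9 and 20.7 without RA and, with RA, 22.1 and 22.7. The change was small, and TG with RA lay within the range of the KO-labelled libraries. Insig2 (ENSMUSG00000003721, chromosome 1, 121304353 to 121332589), which retains Scap, stood in TG at 5.38 and 5.69 without RA and, with RA, 8.04 and 8.54 FPKM, a rise of 0.51 ± 0.068, adjusted p = 0.00053. Libraries of WT held 6.48 and 7.01 without RA and, with RA, 7.55 and 7.81, and those labelled KO held 6.84 and 6.61 without RA and, with RA, 7.24 and 6.47. The TG libraries were lowest without RA and highest with it. Insig1, a classic SREBP target, ranged from 22.6 to 35.0 FPKM and differed in TG by 0.01 ± 0.12, adjusted p = 0.98, so that the paralogues took different calls. Srebf1 ranged from 28.1 to 38.2 FPKM and differed by 0.12 ± 0.095, adjusted p = 0.36.

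**Figure D3:**
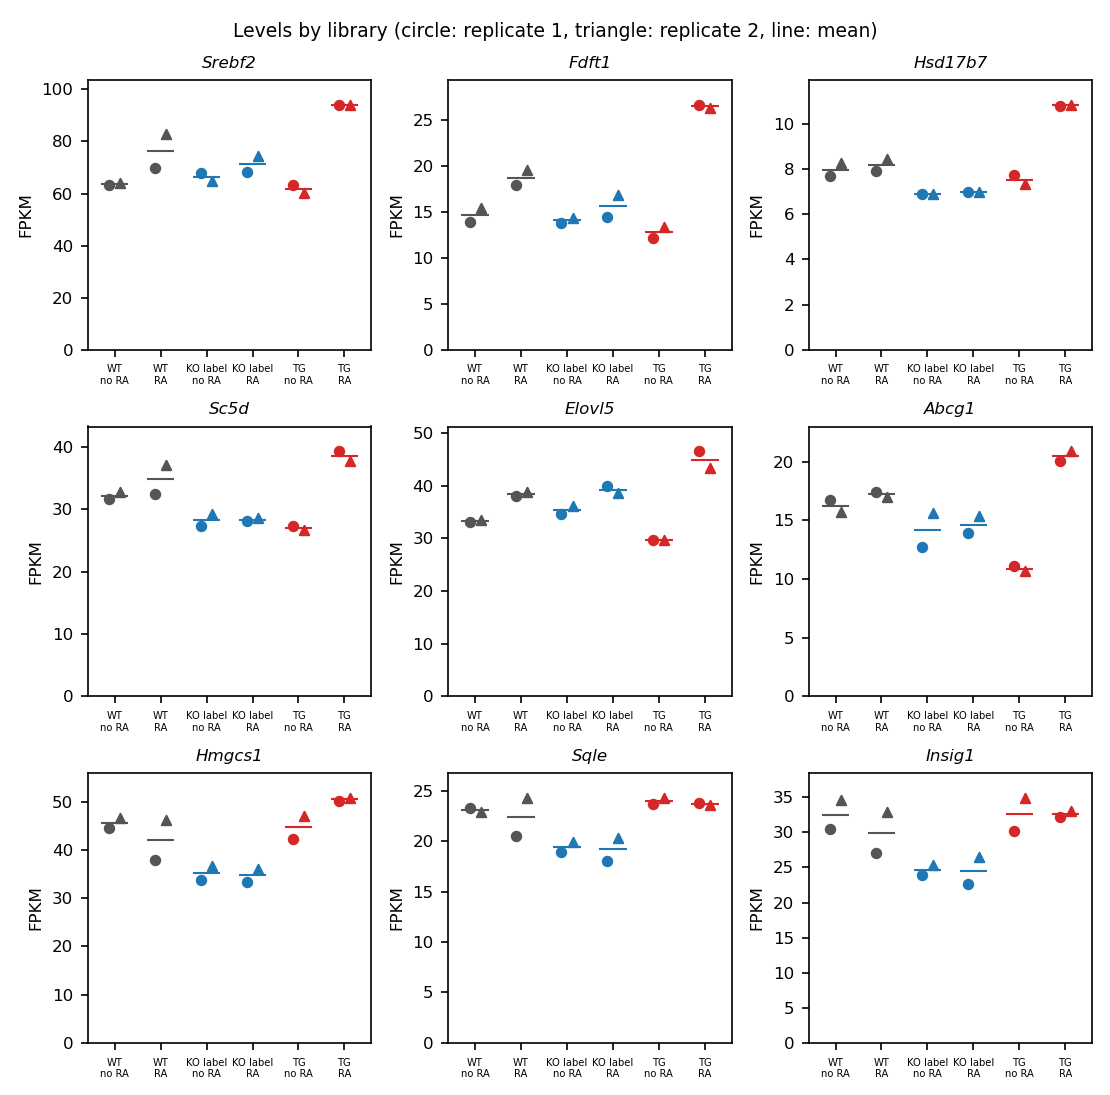
FPKM of 9 members in every library (circle: replicate 1; triangle: replicate 2; line: mean of the 2), by group, each panel on its own axis from 0. TG with RA stands highest for Srebf2, Fdft1, Hsd17b7, Sc5d, Elovl5 and Abcg1, while Sqle and Insig1 in TG differ little between doses.

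The sterol exporter Abcg1 (ENSMUSG00000024030, chromosome 17, 31057675 to 31117988) stood in TG at 11.1 and 10.7 without RA and, with RA, 20.1 and 20.9 FPKM, a rise of 0.85 ± 0.088, adjusted p = 0.00013. Its FPKM in WT was 16.8 and 15.7 without RA and, with RA, 17.4 and 17.0, and in KO-labelled cells 12.7 and 15.6 without RA and, with RA, 13.9 and 15.3. TG cells were thus at the bottom of the range without RA and at the top with it. Stard4, a carrier that moves cholesterol between membranes, stood in TG at 25.8 and 26.2 without RA and, with RA, 30.9 and 31.6 FPKM, a rise of 0.26 ± 0.085, adjusted p = 0.042. Its values were 25.2 and 28.9 without RA and, with RA, 24.2 and 29.0 in WT, and 21.8 and 21.99 without RA and, with RA, 20.3 and 20.8 in KO-labelled cells. The rise was modest and ended when any 1 of the 4 TG libraries was left out (0.24 to 0.27, adjusted p 0.11 to 0.15). Abca1 (ENSMUSG00000015243, chromosome 4, 53030787 to 53159895), the exporter that loads cholesterol onto apolipoprotein, differed in TG by 0.16 ± 0.14, adjusted p = 0.43 and did not pass. Mylip, an LXR target whose product marks lipoprotein receptors for degradation, ranged from 1.42 to 4.64 FPKM and differed by 0.40 ± 0.16, adjusted p = 0.076.

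In fatty acid synthesis Acss2, Scd1, Elovl5 and Elovl6 rose in TG and Acly fell. Elovl5 (ENSMUSG00000032349, chromosome 9, 77917364 to 77984519), which lengthens polyunsaturated fatty acids, stood in TG at 29.6 and 29.7 without RA and, with RA, 46.6 and 43.4 FPKM, a rise of 0.58 ± 0.048, adjusted p = 3.3e-05. WT values were 33.1 and 33.6 without RA and, with RA, 38.1 and 38.9, and KO-labelled values 34.7 and 36.3 without RA and, with RA, 39.9 and 38.7. RA libraries were above their untreated counterparts in every genotype, and TG spanned the range. Elovl6 (ENSMUSG00000041220, chromosome 3, 129532355 to 129638495), which lengthens saturated and monounsaturated chains, stood in TG at 7.26 and 6.42 without RA and, with RA, 11.1 and 10.9 FPKM, a rise of 0.62 ± 0.079, adjusted p = 0.00041. By comparison, WT had 5.82 and 6.04 without RA and, with RA, 7.56 and 7.99, and KO-labelled cells had 4.42 and 4.84 without RA and, with RA, 5.26 and 6.02. At either dose KO-labelled cells were lowest, WT next and TG highest, without overlap. Acss2 (ENSMUSG00000027605, chromosome 2, 155517948 to 155585724), which makes acetyl-CoA from acetate, stood in TG at 1.58 and 1.43 without RA and, with RA, 2.78 and 2.74 FPKM, a rise of 0.59 ± 0.095, adjusted p = 0.0015. The WT libraries read 1.63 and 1.43 without RA and, with RA, 2.29 and 1.92, and the KO-labelled libraries 1.84 and 1.59 without RA and, with RA, 2.13 and 2.01. Levels were low in all groups and highest in TG with RA.

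Acly (ENSMUSG00000020917, chromosome 11, 100476353 to 100528000), the enzyme that releases acetyl-CoA from citrate, was the abundant member that went down. It stood in TG at 123 and 117 without RA and, with RA, 99.7 and 100.5 FPKM, and fell by 0.26 ± 0.044 (adjusted p = 0.0021). Libraries of WT held 120.0 and 114 without RA and, with RA, 102 and 106, and those labelled KO held 100.1 and 101 without RA and, with RA, 96.2 and 96.7. The 4 untreated WT and TG libraries were the highest. Scd1 (ENSMUSG00000037071, chromosome 19, 44394455 to 44407879), which makes oleate from stearate, had the largest fitted difference of the 37 in TG. It stood there at 2.10 and 3.47 without RA and, with RA, 11.8 and 12.2 FPKM, a rise of 1.81 ± 0.49, adjusted p = 0.019. Its FPKM in WT was 6.23 and 12.6 without RA and, with RA, 8.83 and 19.4, and in KO-labelled cells 1.79 and 3.76 without RA and, with RA, 1.63 and 4.66. Its call in TG ended without replicate 1 without RA (1.54), and without replicate 1 (1.83) or 2 (1.79) with RA. TG with RA lay inside the WT range. Fasn (0.20), Acaca (0.22), Fads1 (-0.14), Fads2 (0.11) and Scd2 (-0.12) did not pass. Fasn, fatty acid synthase, ranged from 44.0 to 62.0 FPKM, and Acaca, acetyl-CoA carboxylase, from 2.70 to 4.24. In all, 14 of the 19 calls in TG passed under each of the 11 alternatives run. The 5 that did not were Stard4, Acat2, Nsdhl, Scd1 and Idi1.

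In WT cells few of these genes passed the threshold with RA. Fdft1, Elovl5 and Elovl6 rose and Acly fell, 4 of 37 (10.8%, against 10.1% of all tested genes), so the share was near the background. Fdft1 rose by 0.33 ± 0.085, adjusted p = 0.043, Elovl6 by 0.34 ± 0.079, adjusted p = 0.031 and Elovl5 by 0.20 ± 0.048, adjusted p = 0.032. Acly fell by 0.17 ± 0.044 (adjusted p = 0.045). At an unadjusted p under 0.05 by limma there were 11 of 37 (29.7%). No share of all tested genes is given at that threshold, so this count does not show an excess over them. The median difference over the 37 was 0.08, against 0.02 over all tested genes. All 4 calls ended when any 1 of the 4 WT libraries was left out, with differences of 0.26 to 0.40 for Fdft1, 0.31 to 0.38 for Elovl6, 0.19 to 0.22 for Elovl5 and -0.21 to -0.14 for Acly.

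In KO-labelled cells no member passed by limma (0 of 37, against 0.143% of all tested genes), and voom on recovered reads also called 0. At an unadjusted p under 0.05 there were 3 (8.11%, against 10.7% of all tested genes). Elovl6 differed by 0.24 ± 0.079, adjusted p = 0.34, Elovl5 by 0.14 ± 0.048, adjusted p = 0.33, Fdft1 by 0.13 ± 0.085, adjusted p = 0.62 and Srebf2 by 0.10 ± 0.078, adjusted p = 0.70. The median difference over the 37 was 0.02, against 0.01 over all tested genes. When the RA effects of KO-labelled and WT cells were compared, the difference passed for 0 of 37 by limma and by voom (against 0.00839% of all tested genes), and 0 had an unadjusted p under 0.05 (against 5.37%).

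**Figure D4:**
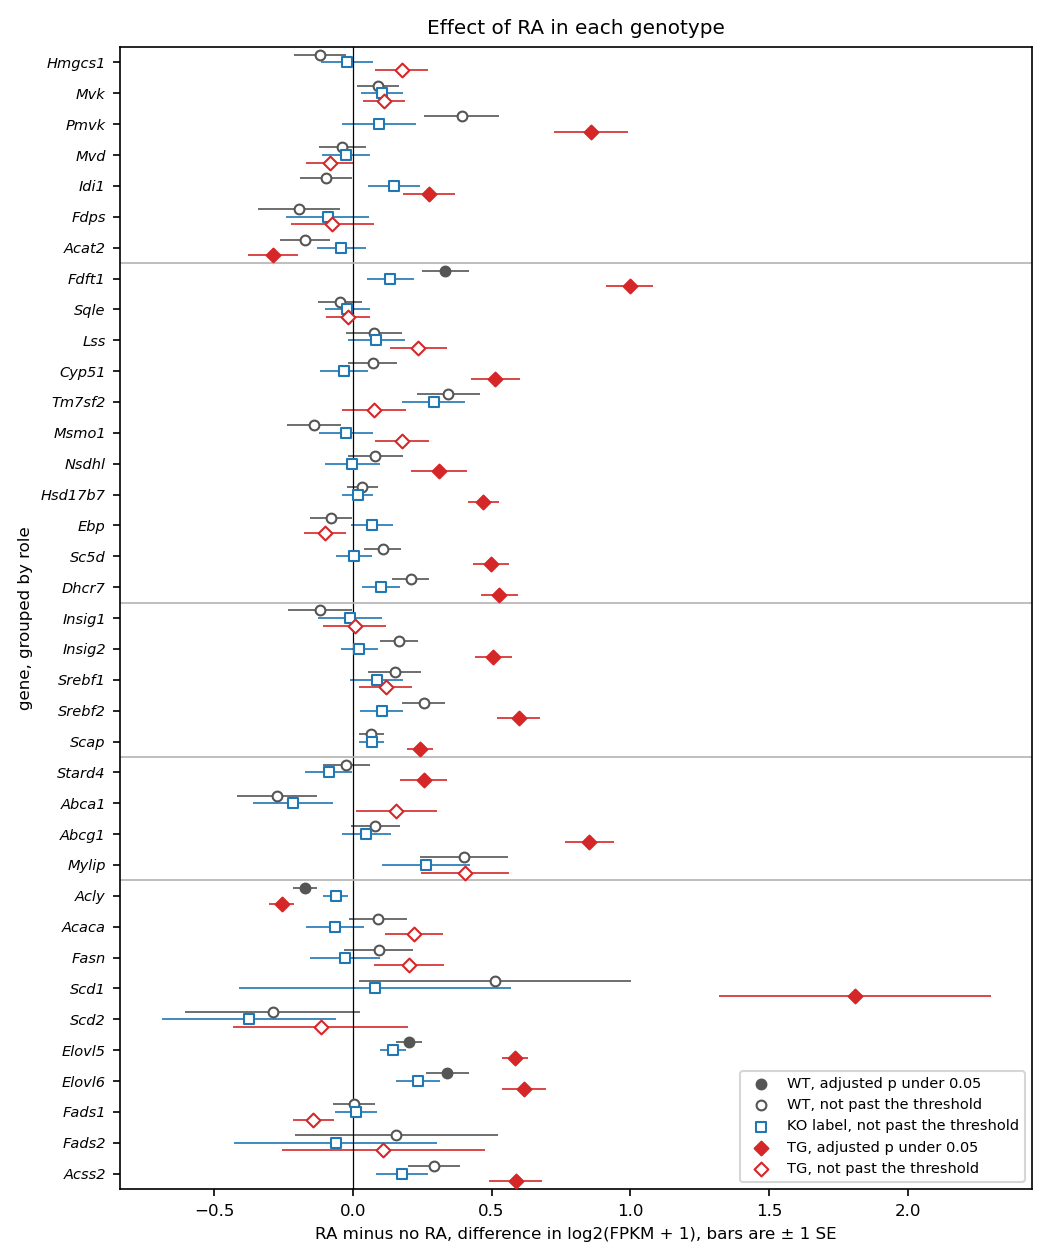
RA minus no RA for each member in WT (circles), KO-labelled (squares) and TG (diamonds), as differences in log2(FPKM + 1) with bars of 1 SE; filled symbols passed the adjusted p threshold of 0.05. Filled diamonds mark 19 members in TG and filled circles 4 in WT, and no square is filled.

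Whether RA acted differently in TG and WT was tested directly as the difference of the 2 effects. It passed for 5 of 37 genes, all with the larger effect in TG (13.5%, against 7.48% of all tested genes). Abcg1 differed by 0.77 ± 0.12, adjusted p = 0.0081, with RA effects of 0.85 in TG and 0.08 in WT. Fdft1 differed by 0.67 ± 0.12, adjusted p = 0.013 (0.998 and 0.33), with the reservation on Ctsb given above. Hsd17b7 differed by 0.44 ± 0.079, adjusted p = 0.013 (0.47 and 0.03). These are a sterol exporter and a pair of sterol enzymes. Sc5d differed by 0.39 ± 0.093, adjusted p = 0.040 (0.50 and 0.11), and Elovl5 by 0.38 ± 0.067, adjusted p = 0.012 (0.58 and 0.20). Over the 37 genes, 29 had the more positive RA difference in TG, with a median of 0.23, against -0.03 over all tested genes. The matching share of all tested genes was not counted. Acly, which fell by 0.26 in TG and 0.17 in WT, is not among the 29. Abcg1 passed under all 15 alternatives. Without WT replicate 2 without RA, the other 4 did not pass (0.60 for Fdft1, 0.39 for Hsd17b7, 0.37 for Sc5d and 0.37 for Elovl5). Without TG replicate 1 with RA, Fdft1 (0.65) and Hsd17b7 (0.44) also missed the threshold, and Hsd17b7 did so without TG replicate 2 at either dose (0.40 and 0.43). Sc5d missed it without any 1 of 7 of the 8 libraries (0.30 to 0.49 over all 8).

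Untreated TG libraries stood low in part of the list. Both TG libraries without RA were below the other 10 in 8 of 37 genes (21.6%, against 11% of all tested genes): Fdft1, Dhcr7, Insig2, Srebf2, Scap, Elovl5, Abcg1 and Mylip. Against WT without RA, 2 of 37 passed and both were lower in TG (5.41%, against 4.31% of all tested genes). Abca1 stood at 3.15 and 3.30 FPKM in WT and 1.41 and 0.718 in TG, a difference of -1.05 ± 0.14, adjusted p = 0.0073. Abcg1 stood at 16.8 and 15.7 in WT and 11.1 and 10.7 in TG (-0.53 ± 0.088, adjusted p = 0.015). Both are LXR-regulated exporters. The Abca1 call ended without WT replicate 2 without RA (-1.03), and that of Abcg1 without any 1 of the 4 libraries (-0.58 to -0.49).

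With RA, 6 genes were higher in TG than in WT and 1 was lower (18.9%, against 11.5% of all tested genes). Fdft1 was higher by 0.48 ± 0.085, adjusted p = 0.0085, Elovl6 by 0.45 ± 0.079, adjusted p = 0.0079 and Hsd17b7 by 0.36 ± 0.056, adjusted p = 0.0043. Idi1 (0.36 ± 0.094, adjusted p = 0.041), Srebf2 (0.30 ± 0.078, adjusted p = 0.041) and Elovl5 (0.22 ± 0.048, adjusted p = 0.021) were also higher. Abca1 was lower: it stood at 2.35 and 2.64 FPKM in WT and 1.29 and 1.25 in TG (-0.62 ± 0.14, adjusted p = 0.027), and at 1.83 and 1.97 without RA and, with RA, 1.58 and 1.42 in KO-labelled cells. Abcg1, which was lower in TG without RA, stood at 17.4 and 17.0 in WT and 20.1 and 20.9 in TG with RA (0.24 ± 0.088, adjusted p = 0.13). Of the pair of exporters, Abca1 was thus lower in TG than in WT at both doses, and Abcg1 passed without RA only. These comparisons share the WT and TG libraries with the RA comparisons above. Without TG replicate 1 with RA, 1 of the 7 calls remained, Hsd17b7 (0.37), and without WT replicate 1 or TG replicate 2 with RA, 3 did. The calls of Abca1 (-0.68 to -0.56) and Idi1 (0.34 to 0.38) ended without any 1 of the 4 libraries.

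KO-labelled cells stood lower than WT in much of the list, although no single gene passed by limma on the group means alone. With the replicate number added as a block, 8 passed without RA and 3 with RA, all lower. The share of all tested genes under the block is not given, so these 2 counts have no background. The shares below are from the fit without it. The labels do not establish that pairing. Without RA, 0 of 37 passed by limma and by voom (against 1.74% of all tested genes), while 16 had an unadjusted p under 0.05 (43.2%, against 15.2%). Both KO-labelled libraries lay below both WT libraries in 25 genes (against 20.1% of all tested genes) and above in 4 (against 27.6%). The median difference was -0.18, against 0.01 over all tested genes. With RA, 0 passed by limma (against 0.881%), 1 by voom, which was Elovl6, and 20 had an unadjusted p under 0.05 (54.1%, against 11.1%). The median difference was then -0.20, against 0.00364 over all tested genes. All 4 KO-labelled libraries lay below all 4 WT libraries in 15 of 37 genes (40.5%, against 3.48% of all tested genes), and above in 0 (against 4.22%). Without WT replicate 1 with RA, 3 genes passed in the comparison with RA: Cyp51 (-0.50), Sc5d (-0.38) and Stard4 (-0.48).

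By role, the genes with all KO-labelled libraries below all WT libraries were spread over the pathways. They included Hmgcs1 at the entry to mevalonate, which stood at 44.6 and 46.6 without RA and, with RA, 38.0 and 46.3 FPKM in WT and 33.8 and 36.7 without RA and, with RA, 33.4 and 36.0 in KO-labelled cells. In sterol synthesis they were Sqle, Lss, Cyp51, Hsd17b7 and Sc5d, and among regulators and transport genes Insig1, Stard4, Abca1 and Abcg1. Insig1 stood at 30.5 and 34.6 without RA and, with RA, 27.0 and 32.9 FPKM in WT and 24.0 and 25.3 without RA and, with RA, 22.6 and 26.5 in KO-labelled cells (-0.39 ± 0.12, adjusted p = 0.16 without RA). In fatty acid synthesis they were Acly, Acaca, Scd1, Fads1 and Fads2. For Acly the difference without RA was -0.22 ± 0.044, adjusted p = 0.055, close to the threshold, and with RA it was -0.11 ± 0.044, adjusted p = 0.42. Srebf2 was not among these genes, with differences of 0.06 ± 0.078 without RA and -0.09 ± 0.078 with RA. Since all KO-labelled libraries were female and all WT libraries male, the label and sex cannot be told apart here. TG held 1 library of either sex per dose. Hmgcs1 stood there at 42.2 and 47.1 FPKM without RA and, with RA, 50.1 and 50.8. Insig1 stood at 30.2 and 35.0 without RA and, with RA, 32.3 and 33.0. TG was not at the WT level for all of these genes. Without RA, its means for Cyp51, Sc5d, Scd1, Abca1 and Abcg1 were nearer to those of KO-labelled cells or below them. Those for Hmgcs1, Sqle, Lss, Hsd17b7, Insig1, Stard4, Acly, Acaca, Fads1 and Fads2 were nearer to WT. The part of sex was not tested.

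The desaturase genes Scd1, Scd2 and Fads2 had the largest fitted differences between KO-labelled and WT cells and also the largest standard errors. Without RA, Scd1 differed by -1.45 ± 0.49, adjusted p = 0.21, and with RA by -1.88 ± 0.49, adjusted p = 0.17. Low Scd1 was not particular to the KO label. In TG it read 2.10 and 3.47 FPKM without RA and, with RA, 11.8 and 12.2. TG without RA differed from WT by -1.42 ± 0.49 (limma adjusted p = 0.16). Scd2, the neighbour of Scd1, stood at 193 and 242 without RA and, with RA, 145 and 216 FPKM in WT, and at 88.1 and 147 without RA and, with RA, 67.7 and 113 in KO-labelled cells. In TG it read 167 and 212 without RA and, with RA, 162 and 186. The difference between KO-labelled and WT cells was -0.92 ± 0.31, adjusted p = 0.21 without RA, and with RA -1.003 ± 0.31, adjusted p = 0.26. Its KO-labelled and WT ranges overlapped over both doses. Fads2, which begins the making of polyunsaturated fatty acids, stood at 13.5 and 17.6 without RA and, with RA, 14.03 and 21.3 FPKM in WT, and at 5.37 and 8.84 without RA and, with RA, 4.15 and 10.2 in KO-labelled cells. In TG it read 14.05 and 17.2 without RA and, with RA, 15.2 and 18.7. It differed by -1.05 ± 0.37, adjusted p = 0.22 without RA, and with RA by -1.27 ± 0.37, adjusted p = 0.22, and no KO-labelled library reached the lowest WT library. Fads1, its neighbour on chromosome 19, ranged from 18.2 to 24.6 FPKM and differed by -0.21 ± 0.075 and -0.21 ± 0.075. These values are from the fit without a replicate block. With the block, limma adjusted p of KO-labelled against WT cells without RA was 0.019 for Scd1, 0.015 for Scd2 and 0.025 for Fads2. With RA it was 0.0096, 0.013 and 0.021.

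Replicate 2 stood above replicate 1 in all 6 groups for Scd1, Scd2 and Fads2, and for 11 of 37 members in all (29.7%, against 7.59% of all tested genes). Transcripts of antigen-presenting cells did so as well. The 6 dendritic-cell or class II markers summed to 23.7 and 157 without RA and, with RA, 26.0 and 165 FPKM in WT. They summed to 26.4 and 73.1 without RA and, with RA, 25.5 and 78.2 in KO-labelled cells and 27.4 and 43.7 without RA and, with RA, 32.1 and 42.9 in TG. The part of these cells in the desaturase values was not tested.

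**Figure D5:**
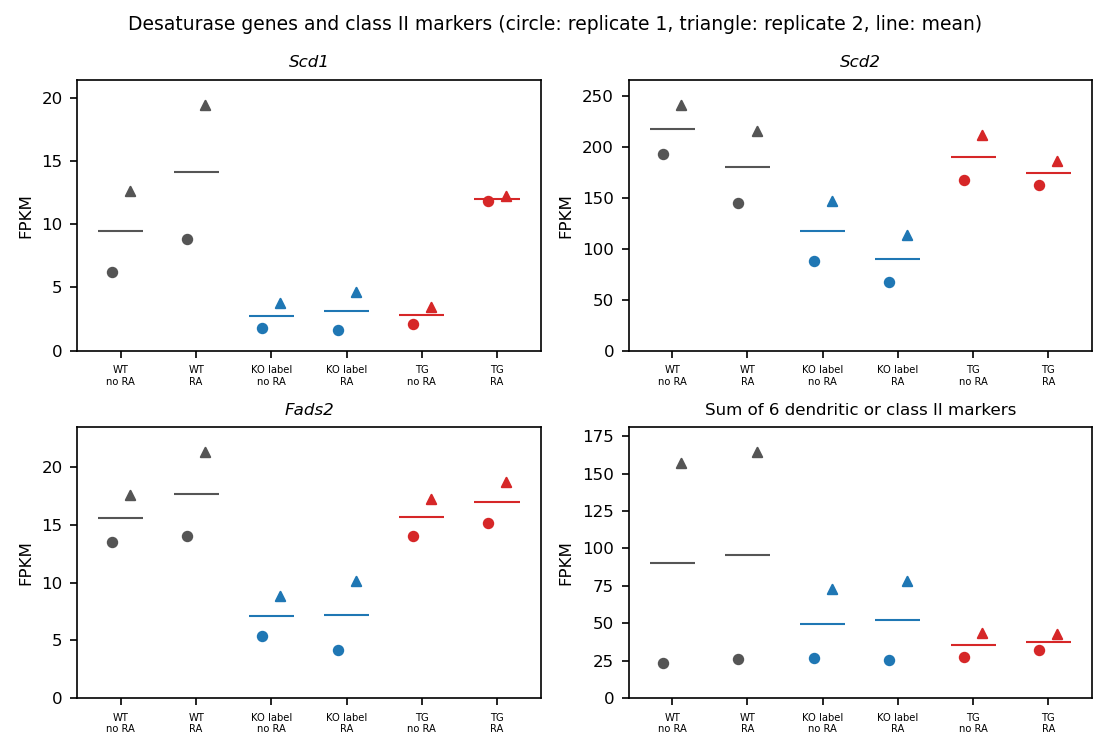
FPKM of Scd1, Scd2 and Fads2 and the summed FPKM of 6 dendritic-cell or class II markers in each library (circle: replicate 1; triangle: replicate 2; line: mean). Triangles stand above circles in every group of all 4 panels, and the KO-labelled groups are low for the 3 desaturases. TG without RA is low as well for Scd1.

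Motifs and responses were set side by side for the 29 genes with a promoter. Of 7 genes with an E-box, 5 rose in TG with RA, and of 22 without, 8 rose and 2 fell. Among all 873 tested genes with an E-box, 19.9% were higher and 25% lower, against 21.7% and 21.1% of those without. Of 22 members with an NF-Y box, 11 rose and 0 fell, and of 7 without, 2 rose and 2 fell. Among all 3410 tested genes with an NF-Y box, 22% were higher and 20.9% lower, against 21.2% and 21.9% of those without. Of the 2 members with the sterol element core, Acat2 fell and Hmgcs1 did not pass. These counts are small and are given as a description.

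The rest of lipid metabolism, from lists that do not overlap the 37 genes, showed a mixed response to RA in TG. Over all tested genes 19.7% were higher and 19.4% lower there, with a median difference of -0.02. Of 13 other sterol and isoprenoid enzymes, 2 rose (15.4%) and 1 fell (7.69%), with a median of -0.07. Fntb, a protein farnesyltransferase subunit, rose by 0.86 ± 0.050, while Pdss1, of ubiquinone synthesis, fell (-0.44 ± 0.11). Of 8 tested genes of SREBP processing and stability, 3 rose (37.5%) and 1 fell (12.5%), with a median of 0.06. Rnf145, a sterol-regulated ubiquitin ligase of Scap, stood at 18.1 and 17.3 FPKM without RA and, with RA, 42.7 and 37.2 and rose by 1.13 ± 0.070. Mbtps1, a protease that cleaves SREBP, rose by 0.25 ± 0.064, and Erlin1, a membrane protein of the endoplasmic reticulum, fell (-0.39 ± 0.071). Of 13 tested genes of other fatty acid and glycerolipid synthesis, 3 rose (23.1%) and 2 fell (15.4%), around a median of -0.0044, with Acsl5 higher (0.31 ± 0.064) and Acsl3 (-0.84 ± 0.091) and Elovl7 (-0.84 ± 0.12) lower.

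Of 6 tested genes of sterol efflux and LXR, 3 rose (50.0%, against 19.7% of all tested genes) and 0 fell: Lpcat3 (0.41 ± 0.050), Arl4c (0.39 ± 0.11) and Abca7 (0.37 ± 0.095). Storage genes held the largest of these changes, with 6 of 11 higher (54.5%) and 4 lower (36.4%). The median was 0.34 in both of these lists. Plin2, which coats lipid droplets, stood at 0.592 and 0.502 FPKM without RA and, with RA, 4.39 and 4.73 and rose by 1.85 ± 0.11. Soat1, which esterifies cholesterol for storage, rose by 0.81 ± 0.089, and Dgat1, which makes triglyceride, by 0.64 ± 0.077. Of 6 tested genes of lipid uptake and transport, 2 rose and 2 fell (33.3% each), with a median of -0.10. Fabp5, a fatty acid carrier, fell (-1.04 ± 0.15), as did the lipoprotein receptor gene Lrp8 (-0.73 ± 0.11), and the sterol transporter gene Stard3 rose (0.48 ± 0.084). Of 14 fatty acid oxidation genes, 8 rose (57.1%, against 19.7% of all tested genes) and 1 fell (7.14%), with a median of 0.27. The rises included Cpt1a, which controls entry of fatty acids into mitochondria (0.64 ± 0.075), Acadm (0.62 ± 0.048) and Eci1 (0.71 ± 0.082). Synthesis and oxidation genes thus both included rises in TG with RA. In KO-labelled cells RA gave 0 calls among the 71 tested genes of these 7 lists by limma and 0 by voom, against 0.143% of all tested genes by limma. An unadjusted p under 0.05 was found for 15 of the 71 (21.1%), against 10.7% of all tested genes.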

How the data were processed

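The deposited values are FPKM per gene, made by the authors, in 1 table of 12 libraries. Libraries were stranded single reads of 100 bp, per the labels' protocols. Tools named in the submitters' processing notes are HTSeq 0.6.1, STAR, Trimmomatic 0.32 and DESeq2, with mm10 and GRCm38.p5 as builds. The sources used here do not state the annotation or whether counting used strand.

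The 11922 genes with 1 FPKM or more in 2 or more libraries were fitted on log2(FPKM + 1) with limma 3.58.1 (eBayes with a trend) under R 4.3.3. The model had 1 mean for each of the 6 groups, with 6 residual and 2.51 prior degrees of freedom. Two-sided p-values were adjusted within each of 9 comparisons over all tested genes (Benjamini-Hochberg, threshold 0.05). Differences are log2 ± SE, and the pseudocount of 1 understates changes of low genes. Replicate values are printed in the order 1, 2. Depth was recovered from 1-read steps of FPKM times GENCODE M21 exon length on GRCm38. At 20 reads or fewer, 95.3% or more of the values came within 0.02 of whole reads. The sum of recovered reads was 1.06 to 1.07 times the depth, and such counts cover counting error only.

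The members and lists were chosen with earlier results of these data known. Genes named with every value were members passing in at least 1 comparison, and, of each other list, up to 3 called genes with the smallest p for RA in TG. Not every gene that this rule names is reported here. Promoter sequences are from RefSeq on GRCm38.p6. Alternatives were a pseudocount of 0.1, no filter, upper-quartile scaling, only the libraries compared, the replicate number as a block, each library left out, and voom on recovered reads (11905 genes). A sex term was added after the data were seen. The code was tested on simulated data. Tables used Python 3.11.15, numpy 2.4.6 and pandas 2.3.3, and figures matplotlib 3.10.9.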

Additional observations from a re-analysis of the deposited data

Results flagged for a closer look

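For 5 members the RA effect differed between TG and WT by a direct test of the difference. It was larger in TG by 0.77 for Abcg1 (limma adjusted p = 0.0081), 0.67 for Fdft1 (0.013), 0.44 for Hsd17b7 (0.013), 0.39 for Sc5d (0.040) and 0.38 for Elovl5 (0.012), all on the log2(FPKM + 1) scale. For Abcg1 the value was 0.73 to 0.82 when each of the 8 libraries was left out. The value of Fdft1 moved together with that of Ctsb, whose exons lie opposite its own.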

How the results depend on the processing

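The 37 called differences were recomputed under 427 alternatives. In 325 they passed again, in 102 they kept their direction without passing, and in 0 they reversed. Of these differences 15 passed under every alternative, 14 of them for RA in TG. The number of members called for RA in TG (19) was 15 without the filter, 17 with only the libraries compared and 14 to 17 when 1 library was left out. For RA in WT (4) it was 1 without the filter, 0 with only the libraries compared, 0 to 2 with 1 library left out and 2 with the sex term. For KO-labelled against WT with RA (0) it was 1 by voom and 0 to 3 with 1 library left out. For TG against WT without RA (2) it was 0 with only the libraries compared, 0 to 1 with 1 library left out and 1 with the sex term. For TG against WT with RA (7) it was 4 without the filter, 2 with only the libraries compared, 1 to 8 with 1 library left out and 4 with the sex term. For the difference of RA effects between TG and WT (5) it was 1 to 7 with 1 library left out. The cause of these moves was not tested, beyond the fewer libraries or more genes that some settings hold. An arm left with 1 library borrowed the spread of the remaining groups.

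With the replicate number as a block, 8 members passed for RA in WT, 23 for RA in TG and 0 for RA in KO-labelled cells. The block gave 8 for KO-labelled against WT without RA, all lower (Scd1, Scd2, Fads1, Fads2, Insig1, Hmgcs1, Fdps and Acly), and 3 with RA, all lower (Scd1, Scd2 and Fads2). It gave 4 and 12 for TG against WT without and with RA, and 7 and 0 for the differences of RA effects in TG and KO-labelled cells. Shares of all tested genes under the block are not given, so whether calls rose in all genes alike is not shown. Each comparison has 2 numbers and the labels do not say what they mark. In TG, number 1 was male and number 2 female at both doses, so there the number went with sex. In WT and KO-labelled cells both numbers had the same sex, and the pairing is not established. Deviations of same-numbered libraries correlated over genes at 0.33 between doses in WT, 0.32 in KO-labelled cells and 0.15 in TG, and at 0.0035 to 0.21 across genotypes. By their highest library, Idi1 (106 to 242 recovered reads), Mylip (117 to 271) and Tm7sf2 (166 to 416) rest on the fewest reads. Scd1 had 144 in its lowest library.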
